A study of Mus musculus with 8 samples.

Results

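Type I interferon response and IRF genes were examined in marginal zone B cells (MZBs), a splenic B cell population at the border of the white pulp that meets blood-borne antigen early. The 47 genes were chosen by name: interferon receptor chains, interferon regulatory factors (IRFs), nucleic acid sensors and interferon-induced effectors. All 47 were found among the 23997 genes of the table, and 45 of them reached 100 fragments in the higher column, as did 9582 genes in all. Ratios are given for these 45 only. The value of Ifit1 in its higher column (160 fragments) was the lowest among the genes kept and that of Ifi44 (32.1 fragments) the highest among those left out.

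The study sequenced RNA of MZBs from C57BL/6 mice, with 4 ACKR3+ and 4 ACKR3- libraries per the labels, in which the titles name the same groups as GFP-positive and GFP-negative. ACKR3 is a scavenger receptor for the chemokine CXCL12. Treatment, age and the allele behind the GFP label are not given in the labels. Each gene has 1 estimated number of fragments in each of the 2 columns, q2 and q1, which pool the libraries of a condition, and no label or header ties either column to ACKR3+ or ACKR3- cells, so values are given by column. The columns sum to 16653774 fragments in q2 and 16877559 in q1, and the depth of each library is unknown. Ackr3 itself had 149 fragments in q2 and 1030 in q1, which checks that the columns differ in this gene but was not used to name them. With 1 value per condition there is no replicate check and no p-value. Ratios are log2 of q2 over q1 with a pseudocount of 1, and the value after ± is the SD implied by the variances in the table. The headers list a dispersion part of these variances. The variances follow mainly the count of a gene and do not show the gene's own spread between mice. Whether libraries were pooled at equal depth is not stated.

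Type I interferons are cytokines released when cells sense viral nucleic acid. They bind the receptor IFNAR1/IFNAR2, whose kinases JAK1 and TYK2 phosphorylate STAT proteins. These join IRF9 and bind the interferon-stimulated response element (ISRE) before target genes, which encode RNA-degrading, translation-blocking and membrane-restricting proteins. In B cells the same pathway modulates activation and Toll-like receptor responses, and tonic low-level signalling keeps many targets expressed without infection.

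Promoter sequence is shown for the 5 genes with an ISRE match among those at least 25% higher in q1. It is also shown for both genes at least 25% higher in q2. Among the others at least 25% higher in q1, Ifih1 had a promoter window without a match. Dhx58, Oas2 and Rtp4 had no window. The stretches are the 250 bases before the annotated transcription start, from RefSeq promoter windows on GRCm38.p6, read 5′ to 3′ on the strand of the gene. The GENCODE M21 annotation places some starts further upstream, with Gbp2 from 142620602, Ifit1 from 34640871 and Samhd1 from 157135265. Part of the stretch of each of these genes lies inside the gene by that annotation. In the first 5 the capitals mark the ISRE core, searched on both strands as GAAA, any 2 bases and GAAA. On the opposite strand it reads TTTC, any 2 bases and TTTC.

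Ifit3 (chr19:34583279-34583528, + strand): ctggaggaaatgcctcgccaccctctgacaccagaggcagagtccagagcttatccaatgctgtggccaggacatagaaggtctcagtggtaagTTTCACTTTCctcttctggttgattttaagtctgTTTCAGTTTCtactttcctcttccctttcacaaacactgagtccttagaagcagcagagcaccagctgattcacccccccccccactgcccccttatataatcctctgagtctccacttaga
Ifit1 (chr19:34640639-34640888, + strand): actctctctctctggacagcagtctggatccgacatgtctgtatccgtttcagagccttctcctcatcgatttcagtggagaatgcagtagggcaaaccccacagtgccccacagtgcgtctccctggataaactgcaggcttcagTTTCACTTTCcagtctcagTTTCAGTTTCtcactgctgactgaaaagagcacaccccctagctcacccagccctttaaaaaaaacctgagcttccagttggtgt
Isg15 (chr4:156200819-156201068, - strand): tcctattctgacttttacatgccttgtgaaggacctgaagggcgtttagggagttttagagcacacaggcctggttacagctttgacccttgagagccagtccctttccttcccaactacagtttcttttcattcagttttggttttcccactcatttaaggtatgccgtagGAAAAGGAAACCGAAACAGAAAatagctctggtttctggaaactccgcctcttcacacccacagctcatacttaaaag
Rsad2 (chr12:26456453-26456702, - strand): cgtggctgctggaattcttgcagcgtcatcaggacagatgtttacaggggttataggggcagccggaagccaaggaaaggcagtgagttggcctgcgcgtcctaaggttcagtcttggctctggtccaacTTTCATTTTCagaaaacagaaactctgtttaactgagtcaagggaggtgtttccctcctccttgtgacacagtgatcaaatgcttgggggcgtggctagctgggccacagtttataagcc
Gbp2 (chr3:142620413-142620662, + strand): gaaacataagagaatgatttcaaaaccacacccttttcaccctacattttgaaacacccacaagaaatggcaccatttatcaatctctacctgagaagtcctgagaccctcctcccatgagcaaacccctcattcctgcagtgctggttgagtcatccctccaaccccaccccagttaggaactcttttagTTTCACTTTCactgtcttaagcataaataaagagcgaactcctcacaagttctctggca

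Ifit3 and Ifit1 each held 2 cores, the matches of Ifit3 starting 156 and 122 bases before the transcription start and those of Ifit1 at 104 and 85 bases. In Isg15 there were 3 overlapping cores at 78, 72 and 66 bases, written as 1 run of capitals. Rsad2 and Gbp2 held 1 core each, at 120 and 59 bases before the RefSeq start. By the GENCODE start the core of Gbp2 lies inside the gene. Neither Samhd1 nor Isg20 held an ISRE core in its window. Among members higher in q2 by less, Irf2 and Igtp held 1 core each and Bst2 held 2. The stretches were chosen by direction and match, so they do not show how the motifs split between columns. In the stretches of Samhd1 and Isg20 the capitals mark TTC, any 3 bases and GAA. These are the letters of the gamma-activated site (GAS) bound by STAT dimers, which read alike on both strands.

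Samhd1 (chr2:157135097-157135346, - strand): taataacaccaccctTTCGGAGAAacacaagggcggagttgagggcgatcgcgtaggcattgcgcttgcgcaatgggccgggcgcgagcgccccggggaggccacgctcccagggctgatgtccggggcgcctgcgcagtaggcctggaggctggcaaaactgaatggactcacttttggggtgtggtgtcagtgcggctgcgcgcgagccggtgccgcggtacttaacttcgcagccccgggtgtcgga
Isg20 (chr7:78913174-78913423, + strand): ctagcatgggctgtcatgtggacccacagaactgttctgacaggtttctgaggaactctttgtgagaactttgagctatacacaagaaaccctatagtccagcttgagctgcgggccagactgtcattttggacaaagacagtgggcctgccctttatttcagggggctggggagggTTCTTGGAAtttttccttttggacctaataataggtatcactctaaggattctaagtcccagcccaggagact

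Most interferon response genes were slightly lower in q2 than in q1. Of the 45 genes, 10 were higher in q2 and 35 higher in q1, whereas the 9582 genes split into 50.2% higher in q2 and 49.8% higher in q1. The median log2 ratio was -0.14, with quartiles of -0.26 and -0.05, against 0.00 for all 9582 genes, whose quartiles were -0.10 and 0.10. At least 25% higher in one column than in the other were 2 genes higher in q2 (6.9% of all genes) and 9 higher in q1 (4.59% of all genes). Only Ifit3 was 1.5-fold apart, higher in q1 (1.58% of all genes), none of the 45 was 1.5-fold higher in q2 (3.39% of all genes), and none was 2-fold apart in either direction (1.84% of all genes higher in q2 and 0.438% higher in q1). A ratio beyond 2 SD was found for 1 gene higher in q2 (4.15% of all genes) and 3 higher in q1 (2.11% of all genes). Beyond 1 SD were 3 genes higher in q2 (11.1% of all genes) and 15 higher in q1 (8.41% of all genes), and the other 27 of the 45 ratios lay within 1 SD of 0. The members were chosen with earlier results of these data known, so the counts describe these genes and carry no independent evidence of direction.

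**Figure D1:**
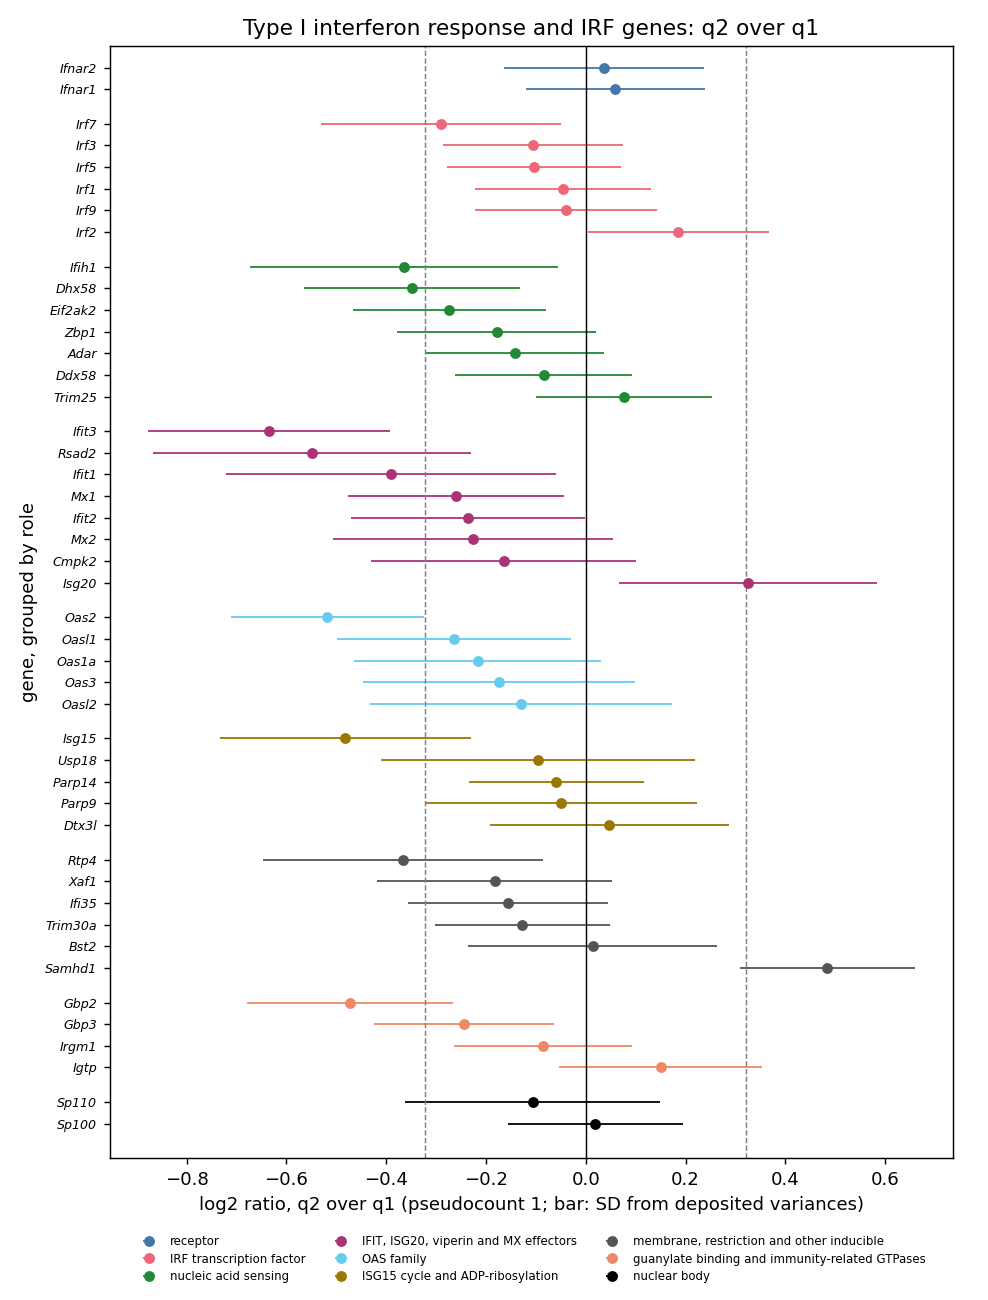
Log2 ratio of q2 over q1 for the 45 genes of at least 100 fragments, grouped by role, with the SD implied by the deposited variances as bars and dashed lines where one column is 25% above the other. The points sit mostly left of 0, Ifit3 reaching -0.63, while Samhd1 at 0.48 and Isg20 at 0.33 lie to the right.

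The receptor and the factors that carry its signal were near equal in the columns. Ifnar1, which encodes the chain bound by TYK2, had 2147 ± 189 fragments in q2 and 2060 ± 182 in q1, a log2 ratio of 0.06 ± 0.18. Ifnar2, the chain that binds interferon with higher affinity, had 877 ± 86.1 in q2 and 855 ± 84.0 in q1, at 0.04 ± 0.20. Both differences were well under their SD. Downstream, Jak1 stood at 0.12 ± 0.18, Tyk2 at -0.14 ± 0.18, Ptpn1, a phosphatase of these kinases, at -0.13 ± 0.18 and Stat2 at -0.01 ± 0.18. Stat2 had 4006 fragments in q2 and 4028 in q1. Among 15 receptor-proximal genes (kinases, STATs, interferon gamma receptor chains, SOCS proteins and phosphatases), 14 reached 100 fragments. Of these 8 were higher in q2 (50.2% of all genes) and 6 in q1 (49.8% of all genes), and their median was 0.00. None was 25% higher in q2 (6.9% of all genes) or in q1 (4.59% of all genes). The largest ratio was that of Socs3, an inhibitor of cytokine receptor kinases, at -0.28 ± 0.23.

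The order of the 8 IRF genes described here by level was the same in both columns apart from Irf5 and Irf4, which changed places. Per length, in FPKM (fragments per kilobase of transcript, scaled to the column total), Irf8 was highest in q2 at 152 ± 13.2, with 128 ± 11.0 in q1. It is required in several myeloid lineages and shapes B cell development. Irf5, a mediator of Toll-like receptor signalling, had 118 ± 10.1 in q2 and 125 ± 10.8 in q1. Irf4, the factor for plasma cell differentiation, had 105 ± 9.23 in q2 and 126 ± 11.6 in q1. These 3 lay within overlapping SDs in q1, while in q2 Irf8 stood above the other two by more than the SD of either, and the SDs of Irf5 and Irf4 overlapped. Below them came Irf1, an activator induced by interferon gamma, with 81.2 in q2 and 82.7 in q1, and Irf3, the constitutive factor activated by RNA sensors, with 59.0 in q2 and 62.6 in q1. Irf2, which competes with Irf1 at its sites, had 51.6 in q2 and 44.7 in q1, and Irf9, the DNA-binding partner of STAT proteins, had 40.0 in q2 and 40.6 in q1. Irf7, the interferon-inducible amplifier of interferon production, was far lower at 9.71 ± 1.17 in q2 and 11.7 ± 1.35 in q1. The SDs of the neighbours Irf3 and Irf2 overlapped in q2, and those of Irf2 and Irf9 in q1.

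**Figure D2:**
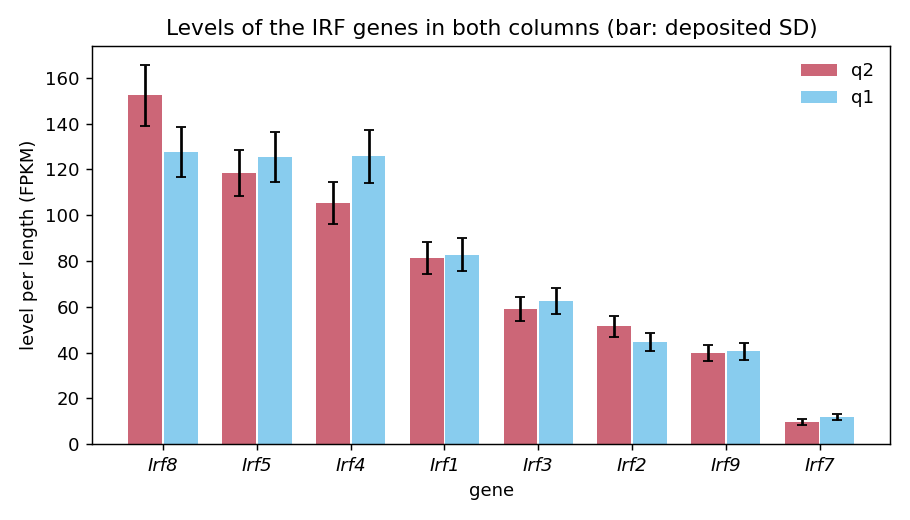
Level per length of 8 IRF genes in q2 (left bars) and q1 (right bars), in FPKM, with the deposited SD as error bars. Irf8, Irf5 and Irf4 are above 100 in both columns and Irf7 is near 10.

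As ratios, 1 of the 6 IRF members was higher in q2 (50.2% of all genes) and 5 in q1 (49.8% of all genes), none by 25%. Irf7 had 362 ± 43.7 fragments in q2 and 443 ± 50.9 in q1, at -0.29 ± 0.24. Irf2 was the member higher in q2, with 2144 ± 189 fragments in q2 and 1885 ± 168 in q1, at 0.19 ± 0.18. Irf3 and Irf5 both stood at -0.10, Irf1 at -0.05 and Irf9 at -0.04, each within 1 SD of 0. Irf1 and Irf9 changed sign, to 0.022 and 0.016, after a correction for base composition, length and level. Of the related factors, Irf8 stood at 0.24 ± 0.18 and Irf4 at -0.28 ± 0.18. Irf2bp2, a corepressor that binds IRF2, had 2084 fragments in q2 and 2927 in q1, at -0.49 ± 0.18, while Irf2bp1 was at -0.09 ± 0.21.

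Genes for nucleic acid sensing were mostly lower in q2, and differences between their ratios were not tested. Dhx58, encoding LGP2, the RIG-I-like receptor that tunes the other two, had 527 ± 57.4 fragments in q2 and 671 ± 69.4 in q1, at -0.35 ± 0.22. Ifih1, encoding MDA5, the sensor of long double-stranded RNA, had 148 ± 23.5 in q2 and 191 ± 27.7 in q1, at -0.36 ± 0.31. Ddx58, encoding RIG-I, the sensor of short RNA with triphosphate ends, was near equal with 2686 ± 234 in q2 and 2848 ± 248 in q1, at -0.08 ± 0.18. Eif2ak2, encoding the translation-blocking kinase PKR, stood at -0.27 ± 0.19. Zbp1, the sensor of Z-form nucleic acid, stood at -0.18 ± 0.20. Adar, which edits adenosine to inosine in double-stranded RNA, was at -0.14 ± 0.18. Trim25, the ubiquitin ligase that acts with RIG-I, was the exception above 0, at 0.08 ± 0.18. In this role 1 gene was higher in q2 (50.2% of all genes) and 6 in q1 (49.8% of all genes). Dhx58 and Ifih1 were at least 25% higher in q1 (4.59% of all genes).

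Of the sensors and adaptors outside the list, 19 reached 100 fragments, with a median of -0.06. Of these 7 were higher in q2 (50.2% of all genes) and 12 in q1 (49.8% of all genes). None of these was at least 25% higher in q2 (6.9% of all genes), and Tlr3 alone was so in q1 (4.59% of all genes). It encodes the endosomal sensor of double-stranded RNA and had 1098 ± 104 fragments in q2 and 2010 ± 178 in q1, at -0.87 ± 0.19. Ikbke, the kinase that activates IRF3 and IRF7, stood just under that size at -0.32 ± 0.19, Tlr7, a receptor for single-stranded RNA, at -0.28 ± 0.18 and Unc93b1, the chaperone of endosomal receptors, at -0.14 ± 0.19. Transcripts of the interferons themselves were near absent. Of 19 ligand genes, 16 had 0 fragments in q2 and 17 in q1, and a value of 0 allows up to 3 fragments in a column. The remaining values were 4.73 fragments in q2 and 3.82 in q1 for Ifng, 1.57 in q2 and 1.62 in q1 for Ifnk, and 0.21 in q2 for Ifnz.

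The IFIT, viperin and MX effectors included the gene furthest from 0. Ifit3, whose product stabilises the cap-binding IFIT1, had 306 ± 38.7 fragments in q2 and 476 ± 53.4 in q1. Its log2 ratio was -0.63 ± 0.24, and the 95% interval from counting error ran from -0.85 to -0.43. Ifit3 lies on chromosome 19 (34583531 to 34588731, GRCm38) beside Ifit2 and Ifit1. Its near-copy Ifit3b was not analysed here, and reads of such copies may be shared. Ifit1, which binds viral RNA lacking cap methylation, had 121 ± 20.8 in q2 and 160 ± 24.8 in q1, at -0.39 ± 0.33. Ifit2 had 388 ± 45.7 in q2 and 457 ± 51.7 in q1, at -0.24 ± 0.23. The 3 neighbours thus lay on the same side of 0, with Ifit3 beyond 2 SD. The interval covers counting error only.

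Rsad2 and Cmpk2 are neighbours on chromosome 12. Rsad2, encoding viperin, which makes a chain-terminating nucleotide, had 130 ± 21.7 fragments in q2 and 191 ± 28.0 in q1, at -0.55 ± 0.32. Cmpk2, a mitochondrial nucleotide kinase, had 257 ± 34.1 in q2 and 288 ± 36.9 in q1, at -0.16 ± 0.27. Mx1 and Mx2, of the dynamin-like antiviral GTPases, stood at -0.26 ± 0.22 and -0.23 ± 0.28. Most inbred laboratory mice carry a defective Mx1, and Mx2 is annotated as a polymorphic pseudogene. The exception in this group was Isg20, an RNA exonuclease. It had 336 ± 41.0 fragments in q2 and 268 ± 35.4 in q1, at 0.33 ± 0.26, and was under 25% higher in q2 with a pseudocount of 10. In all 1 of these 8 genes was higher in q2 (50.2% of all genes) and 7 in q1 (49.8% of all genes), and the median was -0.25.

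All 5 OAS family genes of the list were lower in q2 (49.8% of all genes). The family makes oligoadenylates that activate RNase L, and its mouse members lie in clusters of similar genes on chromosome 5, so reads may be shared among copies. Oas2 had 1044 ± 101 fragments in q2 and 1494 ± 140 in q1, at -0.52 ± 0.19, beyond 2 SD and with a counting interval of -0.63 to -0.40. Oas2 lies at 120730333 to 120749853 (GRCm38). Its cluster neighbours were Oas1a at -0.22 ± 0.25 and Oas3 at -0.17 ± 0.27, and whether their ratios differ from that of Oas2 was not tested. In the other pair, Oasl1, a repressor of Irf7 translation, stood at -0.26 ± 0.23 and Oasl2 at -0.13 ± 0.30. Oas2 alone among the 5 was at least 25% higher in q1 (4.59% of all genes). Counting intervals ran from -0.43 to 0.08 for Oas3 and from -0.43 to 0.17 for Oasl2, so both included 0.

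In the ISG15 cycle, the modifier was lower in q2 and the enzyme that removes it was near equal. Isg15, the ubiquitin-like protein attached to targets, had 282 ± 36.5 fragments in q2 and 394 ± 46.3 in q1, at -0.48 ± 0.25. Usp18, which removes ISG15 and restrains the receptor, had 155 ± 24.2 in q2 and 165 ± 25.5 in q1, at -0.10 ± 0.32, within 1 SD of 0. Whether the 2 ratios differ was not tested. Parp9, Parp14 and Dtx3l, which act on ADP-ribosylation and ubiquitin, stood at -0.05 ± 0.27, -0.06 ± 0.18 and 0.05 ± 0.24. Parp9 and Dtx3l are head to head on opposite strands with exons that share up to 367 bases, and strand use in the counting is not given in the sources used here. Their coefficients of variation, from 11.5% to 13.3% in q2 and from 12.0% to 13.4% in q1, were above those of genes of like count, from 8.92% to 9.15% in q2 and from 8.94% to 9.10% in q1.

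Membrane and restriction factors split between the columns. Samhd1, which hydrolyses deoxynucleotides and so limits reverse transcription, had 6268 ± 543 fragments in q2 and 4482 ± 384 in q1. Its log2 ratio of 0.48 ± 0.18 was the highest of the 45, and its counting interval was 0.43 to 0.54. Samhd1 lies on chromosome 2 (157097533 to 157135265, GRCm38), and per length its rank among the 47 members was 4 in q2 and 6 in q1. Rtp4, a chaperone with antiviral activity, had 203 ± 29.2 in q2 and 262 ± 34.7 in q1, at -0.37 ± 0.28. Bst2, encoding tetherin, which holds budding virus at the cell surface, was near equal with 341 ± 41.7 in q2 and 338 ± 41.4 in q1. Trim30a stood at -0.13 ± 0.18, Ifi35 at -0.16 ± 0.20 and Xaf1 at -0.18 ± 0.24. Ifitm3, which blocks virus entry at endosomes, was scarce with 18.9 ± 6.40 fragments in q2 and 16.6 ± 5.92 in q1, as was Ifi44 with 23.1 ± 7.21 in q2 and 32.1 ± 8.94 in q1.

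Among the interferon-inducible GTPases, which attack membranes around intracellular microbes, Gbp2 had 637 ± 66.5 fragments in q2 and 884 ± 86.6 in q1, at -0.47 ± 0.21 with a counting interval of -0.62 to -0.32. Its neighbour Gbp3 had 1953 ± 174 in q2 and 2313 ± 203 in q1, at -0.24 ± 0.18. Irgm1, a regulator of the other GTPases, stood at -0.09 ± 0.18, and Igtp, an effector, was higher in q2 at 0.15 ± 0.20. Guanylate binding genes are similar in sequence, so reads may be shared. The nuclear body genes Sp100 and Sp110 were among the highest of the members per length. Sp110 had rank 1 at 168 FPKM in q2 and 179 in q1, and Sp100 had rank 3 at 116 FPKM in q2 and 112 in q1. Their log2 ratios were -0.11 ± 0.26 for Sp110 and 0.02 ± 0.18 for Sp100. The coefficient of variation of Sp110, 12.6% in q2 and 12.4% in q1, was above that of genes of like count, 8.62% in q2 and 8.63% in q1, and its exons share up to 392 bases with G530012D18Rik on the other strand.

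Interferon-stimulated genes outside the list lay mostly on the same side. Of 62 such genes in the table, 52 reached 100 fragments, with a median of -0.11. Of these, 15 were higher in q2 (50.2% of all genes) and 37 in q1 (49.8% of all genes). By at least 25%, 1 was higher in q2 (6.9% of all genes) and 6 were higher in q1 (4.59% of all genes). This list too was chosen with earlier results of these data known. Lgals3bp, a secreted scavenger receptor protein, had 637 ± 66.9 fragments in q2 and 1051 ± 101 in q1, at -0.72 ± 0.20. Ddx60, a helicase linked to RNA sensing, stood at -0.50 ± 0.21 and Gbp7 at -0.46 ± 0.18. In the other direction Ms4a4c, a membrane protein of the CD20 family, had 1655 ± 149 in q2 and 985 ± 94.8 in q1, at 0.75 ± 0.19.

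**Figure D3:**
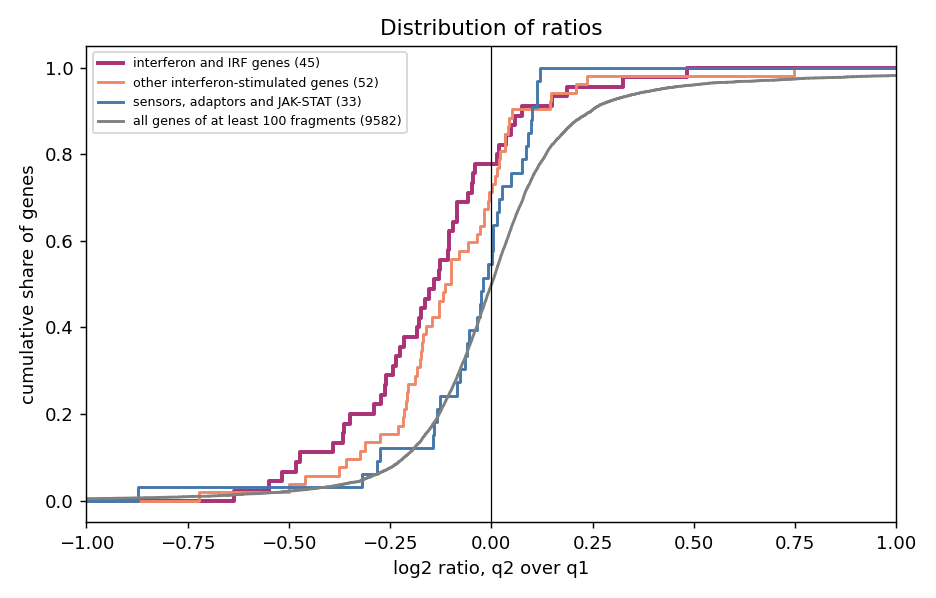
Cumulative share of genes against the log2 ratio of q2 over q1 for the 45 interferon and IRF genes, 52 other interferon-stimulated genes, 33 sensor, adaptor and JAK-STAT genes and all 9582 genes. The first 2 curves run left of that of all genes over most of the range, and 77.8% of the 45 lie below 0.

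The members were also described by level. Of the 18 with a mean under 500 fragments, 2 were higher in q2 and 16 in q1, and their median was -0.23. All genes tested in that range had a median of 0.00, with 48.9% higher in q1. Between 500 and 2000 fragments the 12 members had a median of -0.17, against 0.00 for all genes tested there. Of these members 9 were higher in q1 (49.1% of all genes there). From 2000 fragments upward the 15 members had a median of -0.08, against -0.01, and 10 were higher in q1 (53.2% of all genes there). At least 25% higher in q1 were 6 of the 18 members under 500 fragments (7.08% of all genes there), 3 of the 12 between 500 and 2000 (3.20% of all genes there) and none of the 15 above (2.96% of all genes there). Genes of few fragments passed this size more often in the whole table too, and a difference between the 3 groups of members was not tested. Summed over all 47 members the fragments were 70438 in q2 and 72922 in q1, or 0.423% of the q2 total and 0.432% of the q1 total.

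**Figure D4:**
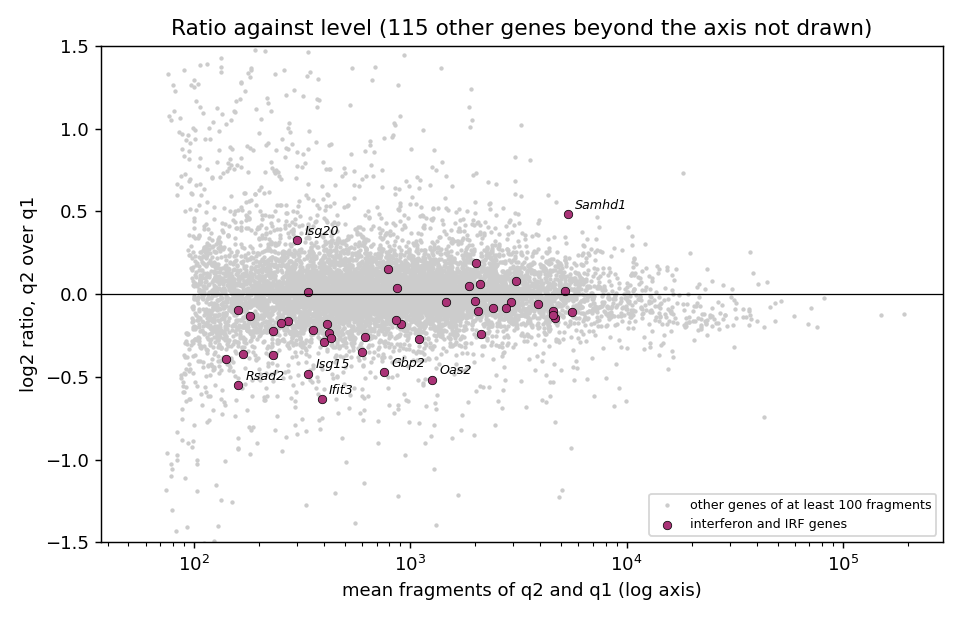
Log2 ratio of q2 over q1 against the mean fragments of both columns (log axis) for the 45 genes and, in grey, the other genes of at least 100 fragments, of which 115 lie beyond the axis. Members below 500 fragments lie mostly under 0, and most of those above 2000 sit close to 0, Samhd1 lying above.

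An ISRE core was found before the start of 13 of the 36 measured members that have a promoter window, or 36.1%, against 3.41% of the 7808 genes tested with a window and 2.98% of all 32851 windows of that length. The members with a core had a median log2 ratio of -0.22, with 10 of 13 higher in q1, and those without had -0.10, with 16 of 23 higher in q1. Among the other tested genes the medians were -0.01 for the 253 with a core and 0.00 for the 7519 without, with 53.8% and 49.5% higher in q1. The GAS letters were found in 10 of the 36 members, or 27.8%, against 7.31% of the tested genes. Of those 10 members 4 were higher in q1, compared with 22 of the 26 without. Ratios near 0 count by sign here too, such as Ifnar2 at 0.04, Bst2 at 0.01 and Irf1 at -0.05. Others, such as Samhd1 at 0.48 and Eif2ak2 at -0.27, lay beyond 1 SD. Neither this split nor that by ISRE core was tested. For the other tested genes, 52.6% were higher in q1 among the 561 with the letters and 49.4% among the 7211 without. Their medians were -0.01 and 0.00. A match of letters is a description of the sequence only, and a missing match applies to these 250 bases.

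Markers of other cells moved with the columns, and their part in the ratios above was not tested. In pooled cells, fewer cells of a type and less RNA per cell cannot be told apart. Of all genes of at least 100 fragments, 50.2% were higher in q2 and 49.8% in q1. Transcripts of the labelled cells were abundant, with 70851 fragments in q2 and 81167 in q1 for Cr2, encoding CD21. General B cell markers were higher in q1 for 7 of 8 genes, with a median log2 ratio of -0.10 beside -0.14 for the members, and summed to 187416 fragments in q2 and 199069 in q1. Marginal zone markers were higher in q1 for 12 of 13 genes, with 135082 summed fragments in q2 and 164440 in q1. Follicular B cell markers were higher in q2 for 6 of 8 genes, with 24345 summed fragments in q2 and 19813 in q1. Macrophage and monocyte markers, of which 8 of 18 reached 100 fragments, summed to 1202 in q2 and 1580 in q1, with 3 of the 8 higher in q2 and 5 in q1. None of the 18 was at 0. C1qa had 21.8 in q2 and 61.2 in q1, while Ly6c2 had 208 in q2 and 59.4 in q1. The T cell list summed to 1266 in q2 and 848 in q1, neutrophils to 70.8 in q2 and 83.1 in q1, erythroid cells to 103 in q2 and 110.0 in q1 and platelets to 28.6 in q2 and 23.0 in q1. The NK cell list summed to 319 in q2 and 349 in q1, of which Prf1, encoding perforin, gave 190 in q2 and 265 in q1, and 6 of the other 7 genes were higher in q2. The conventional dendritic cell list summed to 1523 in q2 and 1099 in q1, of which Ccr7, also on the follicular B cell list, gave 1135 in q2 and 879 in q1. Plasmacytoid dendritic cells, strong interferon producers, were barely represented by their defining marker Siglech, with 5.11 fragments in q2 and 13.7 in q1. The whole list of 10, which also holds Bst2 and Irf7 from the members and genes that B cells express, summed to 24895 in q2 and 27013 in q1. Germinal center, plasma cell and cell cycle markers were higher in q2 for all 8, all 5 and all 10 of their genes of at least 100 fragments, with summed fragments of 2936 in q2 and 624 in q1 for germinal center, 44767 in q2 and 7806 in q1 for plasma cell and 10017 in q2 and 2601 in q1 for cell cycle markers.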

How the data were processed

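Total RNA was extracted with Trizol and prepared with the Illumina TruSeq RNA kit, per the labels' protocols. The submitters' processing notes list Cuffdiff 2.2.1, TopHat2 2.0.14, cutadapt 1.8.1 and the build mm10. The annotation, strand setting and filters applied are not stated there. Per the file headers, the deposited values are Cuffdiff's estimated counts of fragments per condition, each with a variance. They were not rounded or rescaled. No gene had a listed isoform assignment variance above 0. Whether the total variances behind the SDs hold that error was not tested. A column gives 1 value, so the quasi-likelihood test reserved for a table of library counts was not used, and differences are described by size. The text names all 47 members, up to 4 genes per pathway list by absolute ratio, Stat2, Jak1, Tyk2, Irf4 and Irf8 whatever their ratio, and markers; a further gene of that rule is not reported here. Members, lists and alternatives were chosen with earlier results of these data known. In total 22694 symbols matched GENCODE M21 (GRCm38, the assembly called mm10) directly and 930 through a RefSeq synonym. Levels per length use the longest protein-coding transcript of the basic set, or the longest transcript where a gene has none that is protein-coding. Counting intervals use the Clopper-Pearson method (95%). They treat the estimated fragments of a column as plain counts, though these estimates are not integers, so the intervals are approximate. The calculation of ratio and SD was checked on data simulated from the deposited variances. That check cannot show whether the SDs fit the real spread. Python 3.11.15, numpy 2.4.6, pandas 2.3.3 and scipy 1.17.1 were used.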

Additional observations from a re-analysis of the deposited data

How the results depend on the processing

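No paired analysis was possible because libraries were merged by the authors into 1 value for each column, so that no replicate can be paired, left out or tested. The median log2 ratio of the members stayed below 0 under all 8 alternatives, between -0.18 (without the 9 members whose exons overlap another protein-coding gene, chosen after the data were seen) and -0.09 (minimum of 500 fragments), against -0.14. The count of members higher in q1 was 35 of 45, 33 of 45 after correction for GC content, length and level, 36 of 46 with a minimum of 20 fragments, 29 of 36 without members that overlap another gene, and 19 of 27 with a minimum of 500 fragments, where fewer genes are compared. Of all genes, from 49.8% to 50.4% were higher in q1 under these settings. With the minimum of 500 fragments, 1 member was at least 25% higher in q2 (4.45% of all genes) and 3 in q1 (3.36% of all genes). There 0 members were 1.5-fold higher in q1. With a pseudocount of 10, 1 member was at least 25% higher in q2 (6.68% of all genes) in place of 2. After correction for GC content, length of the transcript and mean level, 2 were at least 1.5-fold higher in q1 in place of 1. Of 225 recomputed member ratios, 3 moved beyond counting error, all under that correction (Irf3 to -0.0098, Irf5 to -0.0087 and Adar to -0.054), and 2 changed sign; the cause was not tested. Scaling to equal totals gave -0.12, where the median of all genes was 0.02. With that scaling 35 of 45 members were higher in q1 (44.7% of all genes).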
